A study of Mus musculus with 7 samples.

Results

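The genes described here are 10 subunits of the AMPA and NMDA glutamate receptors, namely Gria1, Gria2, Gria3, Gria4, Grin1, Grin2a, Grin2b, Grin2c, Grin2d and Grin3a. They were taken by gene symbol from the 24062 symbols counted, and all 10 passed the filter on low counts that left 14407 genes for testing. The samples came from ERα-ZsGreen transgenic mice on a C57BL/6J background, in which a green fluorescent reporter marks cells that express estrogen receptor alpha (ERα, encoded by Esr1). ZsGreen+ neurons of the medial preoptic area, a hypothalamic region that controls body temperature, were recorded in brain slices while the bath was warmed by 5 °C. The mice were young adults, and female according to the study's methods, a statement that counts of sex-linked genes given below do not match. Contents of the recorded neurons were then drawn into the patch pipette. Neurons were sorted by whether their firing rate rose with warming by more than a cutoff set by the study. Those with a smaller rise or none were classed as non-responsive. Then 2 neurons of the same class were pooled as 1 sample, which gave 4 temperature-responsive (TR) and 3 non-responsive (NR) samples. Reporter, strain, slice preparation and warming were common to both groups, no unwarmed sample was analysed here, and the labels do not say whether samples came from different mice, so p-values measure the spread between these samples only.

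AMPA receptors are tetramers of the subunits GluA1 to GluA4, which Gria1 to Gria4 encode, and they carry most fast excitatory current in the brain. NMDA receptors combine the obligatory subunit GluN1 (Grin1) with GluN2 subunits (Grin2a to Grin2d) or GluN3 subunits (such as Grin3a). Those formed of GluN1 and GluN2 pass calcium when glutamate binds while the membrane is depolarized. GluA2 sets whether an AMPA receptor passes calcium, and the GluN2 subunit sets how slowly NMDA receptor currents decay and how strongly magnesium blocks them.

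Calcium permeability and magnesium block depend in part on 1 position in the pore loop, and the coding sequence around it is shown for 8 subunits because its codon differs between the AMPA and NMDA classes. The GluN2 subunits shown share this codon. The 30 bases below were read 5′ to 3′ on the coding strand from GENCODE M21 transcripts (GRCm38, identical to mm10), with the codon of that position in capitals. It is the Q/R site of the AMPA subunits and the asparagine site of the NMDA subunits.
Gria1: ggggccttcatgCAGcaaggatgtgacatt
Gria2: ggtgcctttatgCAGcaaggatgcgatatt
Gria3: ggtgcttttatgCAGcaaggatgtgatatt
Gria4: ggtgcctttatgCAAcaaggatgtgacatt
Grin1: ggcgtcctgctcAACtctggcattggggaa
Grin2a: ggcctggtcttcAACaattctgtgcccgtc
Grin2c: gcactggtcttcAACaactctgttcccatc
Grin2d: gccctggtgttcAACaactccgtgccagtg

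Each window lies within 1 coding exon. Those of Gria1 (chr11:57243082-57243111, plus strand), Gria2 (chr3:80706896-80706925, minus strand) and Gria3 (chrX:41610253-41610282, plus strand) are in exon 11 of 16, and that of Gria4 (chr9:4464122-4464151, minus strand) is in exon 12 of 17. The NMDA windows lie in Grin1 (chr2:25297371-25297400, exon 14 of 21), Grin2a (chr16:9653546-9653575, exon 10 of 14), Grin2c (chr11:115253848-115253877, exon 11 of 15) and Grin2d (chr7:45854378-45854407, exon 8 of 12), all on the minus strand. The AMPA windows differed from each other at 2 to 4 of the 30 bases and the GluN2 windows shown at 5 to 7. The codon shown for Gria2 is the genomic one, which the enzyme ADAR2 edits in the transcript. Counts per gene do not separate edited from unedited transcripts or the flip and flop splice forms, so every value below is a sum over all forms of a gene.

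The deposited values are read counts per gene, which are given here as CPM (counts scaled to a common library size, after correction of library sizes by TMM). Sums of CPM over several genes, and the CPM of 3 counts, were instead scaled to total counts without TMM correction. Total counts were 1914497 to 2814360 in the TR samples and 3309361 to 5125280 in the NR samples, while 19852 to 21177 and 17818 to 19820 genes had at least 1 count, so the groups did not overlap in either measure. A count of 3 corresponded to 0.585 to 1.57 CPM, and reads carried no molecular identifiers, so such limits cover counting error only. Neuronal markers summed to 2598 to 2870.2 CPM in TR and 2541 to 2786 CPM in NR samples, Esr1 had only 10 to 27 counts per sample, and all 6 astrocyte, 6 oligodendrocyte and 7 microglia markers were also detected with at least 3 counts in every sample. Of the 6 neuronal markers, Rbfox3 (log2 fold change -0.38, edgeR adjusted p = 0.00726), Nefl (-0.37, 0.00512) and Tubb3 (-0.24, 0.0497) were lower in TR and Snap25 (0.50, 0.00391) was higher, so some general neuronal transcripts fell by amounts like those of several subunits described below, and the part of neuronal RNA content in the subunit differences was not tested. The Y-linked gene Ddx3y had 684 to 1150 counts and Xist 2 to 14, although the study's methods describe female mice.

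At an adjusted p threshold of 0.05 (edgeR quasi-likelihood test, two-sided, Benjamini-Hochberg over all genes tested), 6 of the 10 subunits differed between TR and NR samples. Gria2 was higher in TR, and Gria1, Grin1, Grin2a, Grin2b and Grin3a were lower. Calls were frequent across the transcriptome, where 30.0% of the genes tested passed the same threshold, 15.1% of them higher and 14.9% lower in TR, so the number of calls among 10 genes is to be read against that background. The median log2 fold change (TR over NR) was -0.32 over the subunits and 0.007 over all genes tested, with 7 subunits negative and 3 positive. The groups did not overlap in CPM for 5 of the 10 subunits, against 35.4% of all genes tested, and of the 5 the TR samples were lower for 4 (18.2% of all genes) and higher for 1 (17.2%). With 2 pooled neurons per sample, fewer expressing cells and less RNA per cell cannot be told apart in any of these values.

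**Figure D1:**
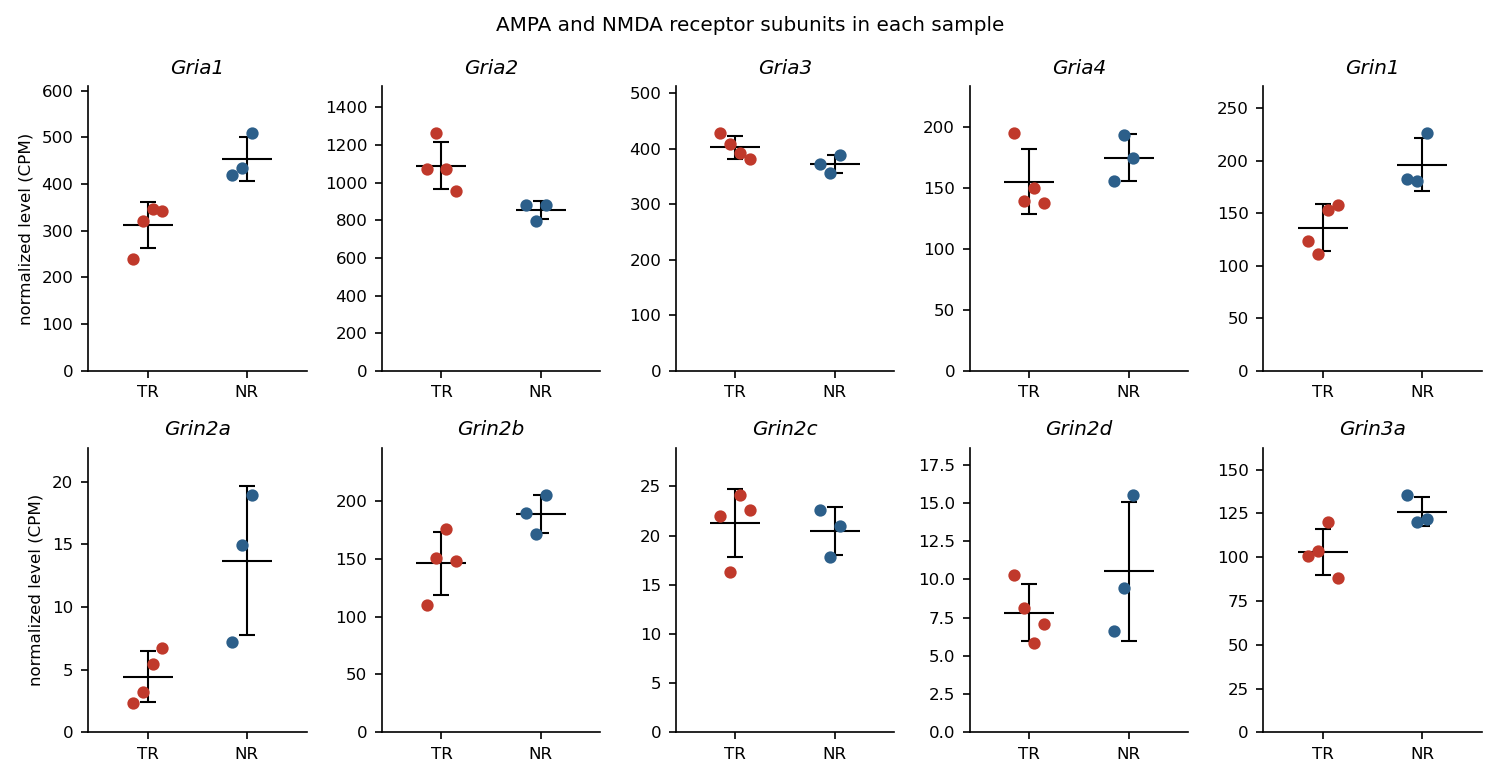
Each panel plots 1 subunit, with its normalized level in CPM on a linear axis from 0. Points are the 4 TR (red) and 3 NR (blue) samples, and black lines give the mean and SD, with all NR points above all TR points for Gria1, Grin1, Grin2a and Grin3a and all below for Gria2.

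Among the AMPA subunits, Gria1 and Gria2 moved in opposite directions. Gria1 (chr11:57011387-57330244, plus strand) encodes GluA1, a subunit known for its activity-dependent delivery to synapses. It stood at 240.5, 322, 347 and 343 CPM in TR samples 1 to 4 and at 419.7, 434 and 508 CPM in NR samples 1 to 3. Every NR sample was above every TR sample, with 73.1 CPM between the nearest values, and TR 1 was the lowest of all. The means were 313 ± 49.5 CPM in TR (SD, n = 4) and 454 ± 47.6 CPM in NR (SD, n = 3), which is 1.45-fold more in NR. The log2 fold change was -0.54 (SE 0.114, 95% confidence interval -0.77 to -0.30, edgeR adjusted p = 0.0014).

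Gria2 (chr3:80681450-80802835, minus strand) encodes GluA2, the subunit that renders edited AMPA receptors nearly impermeable to calcium. Its levels were 1071, 1261, 1071 and 958 CPM in TR samples 1 to 4 and 882, 797 and 883 CPM in NR samples 1 to 3. All TR samples were above all NR samples, by 75.4 CPM at the nearest, and TR 2 was the highest. Means of 1090.3 ± 126 CPM (SD, n = 4) and 854 ± 49.6 CPM (SD, n = 3) gave a 1.28-fold higher level in TR and a log2 fold change of 0.35 (SE 0.107, interval 0.13 to 0.57, edgeR adjusted p = 0.0156). The call was not kept with an offset for GC content, where the log2 fold change was -0.02 and the adjusted p 0.923, and it was also lost without TR 2 (adjusted p = 0.0754), without NR 2 (0.10) and without NR 3 (0.0548).

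Gria3 and Gria4 did not pass the threshold. Gria3 (chrX:41400854-41678601, plus strand), which encodes GluA3, was at 428, 408, 393 and 381 CPM in the TR samples and at 373, 356 and 389 CPM in the NR samples. The lowest TR sample was inside the NR range, and the log2 fold change was 0.11 (interval -0.08 to 0.30, edgeR adjusted p = 0.39). Gria4 (chr9:4417896-4796234, minus strand), which encodes the fast-gating GluA4, was at 195, 139, 149.9 and 138 CPM in the TR samples and at 156, 194 and 175 CPM in the NR samples. TR 1 was the highest of all 7 samples, the other TR samples were the lowest, and the log2 fold change of -0.18 had an interval of -0.41 to 0.06 (edgeR adjusted p = 0.254). Without TR 1 it was -0.31 and passed (edgeR adjusted p = 0.0279).

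Of the 6 NMDA subunits, 4 passed the threshold, all lower in TR. Grin1 (chr2:25291181-25319187, minus strand) encodes GluN1, which every NMDA receptor contains. Its levels were 124, 111, 153 and 157 CPM in TR samples 1 to 4 and 183, 180.2 and 226 CPM in NR samples 1 to 3. No TR sample reached the lowest NR sample, which stood 22.7 CPM above the highest TR sample. The means were 136 ± 22.6 CPM (SD, n = 4) and 196 ± 25.6 CPM (SD, n = 3), 1.43-fold more in NR, with a log2 fold change of -0.52 (SE 0.116, interval -0.76 to -0.28, edgeR adjusted p = 0.00214). Of the exonic bases of Grin1, 13.5% are shared with the antisense gene Grin1os, which is counted in the same files. The strand setting of the counting is not given in the sources used here, so reads of the shared bases are uncertain.

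Grin2a (chr16:9567898-9995560, minus strand) encodes GluN2A, a subunit that rises with maturation in forebrain neurons. It had the lowest level and the largest fold change of the 10 subunits, with 5, 6, 15 and 19 counts in TR samples 1 to 4 and 24, 79 and 94 counts in NR samples 1 to 3. These correspond to 2.34, 3.25, 5.48 and 6.72 CPM in TR and to 7.24, 15.0 and 19.0 CPM in NR. The groups did not overlap, but the highest TR and the lowest NR sample were only 0.517 CPM apart, which is less than the CPM of 3 counts in those libraries. The means were 4.45 ± 2.01 CPM (SD, n = 4) and 13.7 ± 5.95 CPM (SD, n = 3), a 3.00-fold higher level in NR, and the log2 fold change was -1.59 (SE 0.357, interval -2.32 to -0.85, edgeR adjusted p = 0.00213).

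Grin2b (chr6:135713233-136173511, minus strand) encodes GluN2B, a subunit with slow deactivation. It was at 109.9, 150.2, 176 and 148 CPM in the TR samples and at 189, 171 and 205 CPM in the NR samples. TR 3 was above NR 2, so the groups overlapped, and the means of 146 ± 27.0 CPM (SD, n = 4) and 188 ± 16.8 CPM (SD, n = 3) differed 1.29-fold. The log2 fold change was -0.36 (SE 0.118, interval -0.61 to -0.12, edgeR adjusted p = 0.0223), and the adjusted p was 0.0625 without TR 1, 0.0516 without TR 2 and 0.119 without NR 3.

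Grin3a (chr4:49661611-49845744, minus strand) encodes GluN3A, a subunit that lowers the calcium permeability of the receptors that contain it. The TR samples were at 101, 104, 119.9 and 88.1 CPM and the NR samples at 135, 120.3 and 122 CPM. TR 3 was within 0.397 CPM of NR 2, so the groups were barely apart. The means were 103 ± 13.1 CPM (SD, n = 4) and 126 ± 8.31 CPM (SD, n = 3), and the log2 fold change of -0.29 (SE 0.110, interval -0.51 to -0.06) was at the threshold (edgeR adjusted p = 0.0499). The call was lost when any sample other than TR 3 was left out, with adjusted p of 0.0731 to 0.195 in those 6 fits.

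The last 2 NMDA subunits, Grin2c and Grin2d, gave no call. Grin2c (chr11:115249169-115267243, minus strand) encodes GluN2C, known from cerebellar granule cells and astrocytes, and was at 22.0, 16.3, 24.1 and 22.7 CPM in TR and at 22.6, 17.8 and 21.0 CPM in NR samples. The NR samples lay within the TR range, and the log2 fold change was 0.08 (interval -0.33 to 0.49, edgeR adjusted p = 0.806). Grin2d (chr7:45831883-45878378, minus strand) encodes GluN2D, a slowly deactivating subunit found in the diencephalon and in interneurons, and was at 10.3, 8.13, 5.85 and 7.08 CPM in TR and at 6.64, 9.47 and 15.5 CPM in NR samples. Its NR samples ranged from below 3 of the TR samples to above all of them, and the interval of the log2 fold change of -0.47 ran from -1.12 to 0.19 (edgeR adjusted p = 0.282), so a change of 1 on the log2 scale is within it. Of the exonic bases of Grin2d, 9.66% are shared with another annotated gene on the opposite strand.

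**Figure D2:**
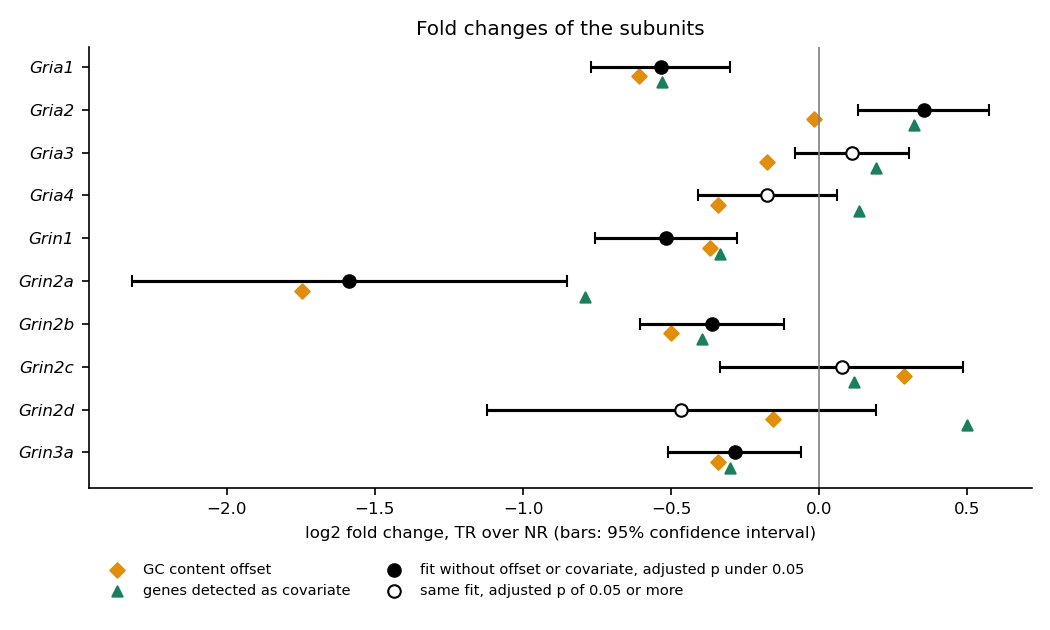
Log2 fold changes (TR over NR, horizontal axis) of the 10 subunits, with circles and 95% confidence intervals from the fit with no offset or covariate (filled, adjusted p under 0.05), diamonds from the fit with a GC content offset and triangles from the fit in which genes detected per sample was a covariate. Grin2a lies farthest from 0 at -1.59, and the diamond of Gria2 lies at -0.02, far from its circle at 0.35.

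The fold changes have to be read beside a measure in which the groups were separated, the number of genes detected. When it was added to the edgeR fit as a covariate, 0 of the 10 subunits passed at an adjusted p under 0.05 and 1 had an unadjusted p under 0.05, and over all genes 1 passed and 2061 had an unadjusted p under 0.05. The adjusted p of Gria1 was then 0.242, that of Grin1 0.439 and that of Grin2a 0.578, with log2 fold changes of -0.53, -0.33 and -0.79. Because no TR sample had as few genes detected as any NR sample, response to warming and number of genes detected cannot be told apart in this design. In the 12 other fits that left out no sample, Gria1 and Grin1 passed, and so did Grin2a in the 11 in which it was tested. The fits were DESeq2, limma-voom, other normalizations, filters, downsampling, offsets and blocks for replicate number. In the fits with a block, TR 4 had no NR sample of its number and so did not inform the fold change.

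Fold change also moved with GC content across the transcriptome. Over 13745 tested genes with an annotated transcript, Spearman's rho between log2 fold change and GC content was -0.342, given as a description because genes of the same libraries are not independent. Gria2 has the lowest GC content of the subunits at 36.8%, and the median log2 fold change of the 185 tested genes within 1 percentage point of it was 0.36, against 0.35 for Gria2 itself. For Gria3, at 39.8% GC, the genes of like content had a median of 0.29, above the 0.11 of Gria3.

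The subunits that were lower in TR did not share a GC content. Gria1 (48.5%) and Grin3a (49.2%) were close to the median of all tested genes (49.8%), where the like genes had medians of 0.00 and -0.02. Grin2a (44.8%) and Grin2b (45.7%) were below that median, with like genes at 0.13 and 0.12, so both were lower than genes of their own content. Grin1 is GC-rich at 59.4%, and its log2 fold change of -0.52 compared with a median of -0.23 among 650 like genes. Grin2c (62.1%) and Grin2d (65.0%) had like genes at -0.30 and -0.28. With the GC content offset, Gria1, Grin1, Grin2a, Grin2b and Grin3a kept their calls, and Gria4 was also called lower in TR (log2 fold change -0.34, edgeR adjusted p = 0.0317).

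**Figure D3:**
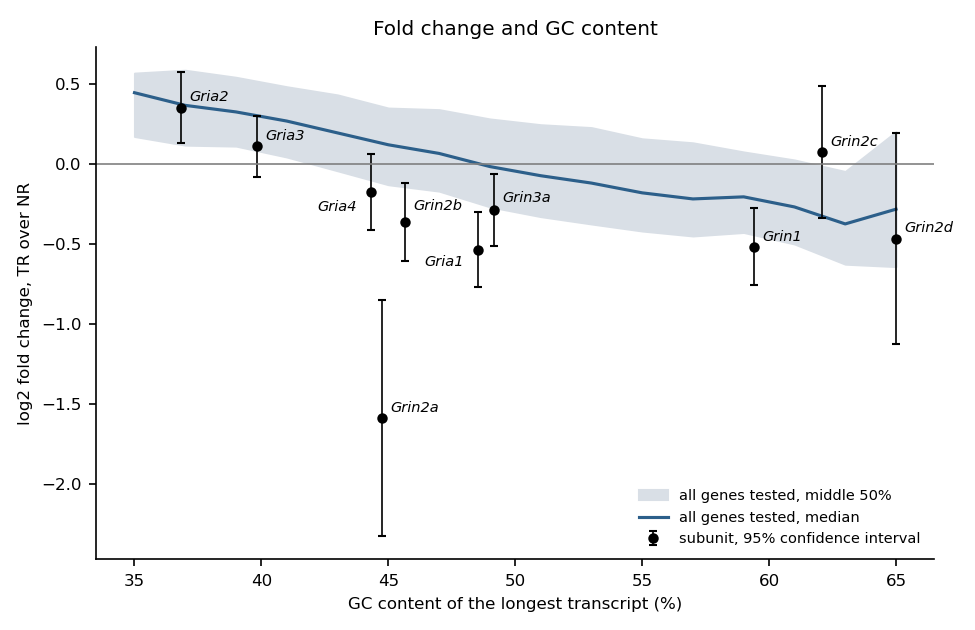
Log2 fold change (TR over NR, vertical axis) against the GC content of the longest transcript in percent (horizontal axis), with the median (line) and middle 50% (band) of all genes tested and the 10 subunits as points with 95% confidence intervals. Gria2 lies on the median line at low GC content, Grin2c lies above it, and the other subunits, called or not, lie below it.

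Levels of different subunits were compared as CPM per kilobase of the union of annotated exons. In TR samples the order was Gria2 at 70.1 ± 8.08, Gria1 at 51.8 ± 8.19, Gria3 at 40.8 ± 2.03, Gria4 at 24.7 ± 4.26 and Grin1 at 14.1 ± 2.33 CPM per kilobase (SD, n = 4), followed by Grin3a at 8.40, Grin2b at 5.88, Grin2c at 4.22, Grin2d at 1.18 and Grin2a at 0.248. The sample ranges of neighbours in this order overlapped only between Gria1 and Gria3 and between Grin2b and Grin2c.

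In NR samples Gria1 stood first at 75.1 ± 7.88 CPM per kilobase and Gria2 next at 54.9 ± 3.19 (SD, n = 3), and the other 8 subunits followed in the same order as in TR. Neighbouring ranges there overlapped only between Grin2d (1.58) and Grin2a (0.765). The exchange of the first 2 places depended on the length used, because the union of exons of Gria2 is 15.6 kilobases and its longest transcript 10.4 kilobases. Per kilobase of the longest transcript, Gria1 and Gria2 were at 81.8 ± 8.58 and 82.3 ± 4.78 CPM in NR and at 56.4 ± 8.92 and 105 ± 12.1 CPM in TR. Among all tested genes with a length, Gria2 and Gria1 were at percentiles 94.0 and 93.8 of the level per kilobase, Grin1 at 71.6 and Grin2a at 0.822.

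Shares within a receptor class compare subunits inside 1 library and so do not depend on its total. They were not adjusted for GC content or for genes detected. With the GC content offset, the log2 fold change of Gria2 went from 0.35 to -0.02 and that of Gria3 from 0.11 to -0.18, so their shares carry that limit. Among the counts per kilobase of the 4 AMPA subunits, Gria1 made up 21.8%, 26.9%, 30.2% and 31.7% in TR samples 1 to 4 and 36.8%, 37.8% and 40.4% in NR samples 1 to 3. The groups did not overlap, and the mean was 10.7 percentage points lower in TR, at 27.6 ± 4.41% (SD, n = 4) against 38.3 ± 1.87% (SD, n = 3; exact permutation test over 35 splits, two-sided, p = 0.0286, the smallest that 4 against 3 samples allow). Gria2 made up 37.6%, 41.0%, 36.3% and 34.5% in TR and 30.1%, 27.0% and 27.3% in NR. It was the largest AMPA share in every TR sample and was below Gria1 in every NR sample, an order that in NR depends on the length used, with means of 37.3 ± 2.76% and 28.1 ± 1.71% (exact permutation, p = 0.0286).

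Gria3 held a slightly larger part of the AMPA counts in TR, at 21.8 ± 1.30% against 19.3 ± 0.613% (exact permutation, p = 0.0286), and Gria4 held 13.2 ± 2.53% and 14.2 ± 1.74% (exact permutation, p = 0.514). The difference in the share of Gria3 was 2.47 percentage points, and with counts not divided by length it was 0.48 and not past 0.05 (exact permutation, p = 0.629). Without TMM correction, the summed level of the 4 AMPA subunits was 1826 to 2052 CPM in TR and 1833 to 1993 CPM in NR samples. These sums overlapped, while the shares of Gria1, Gria2 and Gria3 per kilobase did not and that of Gria4 did. Shares of a class add to 100% and are not independent of each other, and these p-values are unadjusted.

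Within the NMDA class, Grin1 made up 41.2 ± 3.52% of the counts per kilobase in TR and 45.4 ± 2.03% in NR (exact permutation, p = 0.171), and Grin3a 24.8 ± 3.15% and 23.2 ± 2.65% (exact permutation, p = 0.486). Grin2b, which was lower in TR in CPM, held 17.3 ± 2.42% and 17.1 ± 0.429%, a difference of 0.214 percentage points that is smaller than the spread between samples (exact permutation, p = 0.914). Grin2c held 13.9%, 10.6%, 12.4% and 12.7% in TR and 10.4%, 8.61% and 8.49% in NR, so that every TR sample was above every NR sample. Its means of 12.4 ± 1.39% and 9.15 ± 1.04% did not pass 0.05 (exact permutation, p = 0.0571). Grin2a held 0.716 ± 0.277% and 1.71 ± 0.675% (exact permutation, p = 0.0571), and Grin2d 3.55 ± 1.16% and 3.51 ± 1.23% (exact permutation, p = 0.971).

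Among the 4 GluN2 subunits alone, Grin2b had the largest share in every sample, from 42.3% to 56.6% in TR and from 52.2% to 56.4% in NR. Grin2c followed with 36.6 ± 4.76% in TR and 29.2 ± 3.63% in NR (exact permutation, p = 0.0857), and Grin2d with 10.5 ± 3.45% and 11.1 ± 3.69%. Grin2a held 2.11 ± 0.827% of the GluN2 counts per kilobase in TR and 5.42 ± 2.11% in NR, with NR 1 at 2.99% inside the TR range (exact permutation, p = 0.0571). Of the 14 shares computed over the 2 classes and the GluN2 subunits, 4 did not overlap between groups. They were those of Gria1, Gria2 and Gria3 among AMPA subunits and that of Grin2c among NMDA subunits. In CPM, 35.4% of all genes tested did not overlap, so 4 of 14 is not above that background.

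**Figure D4:**
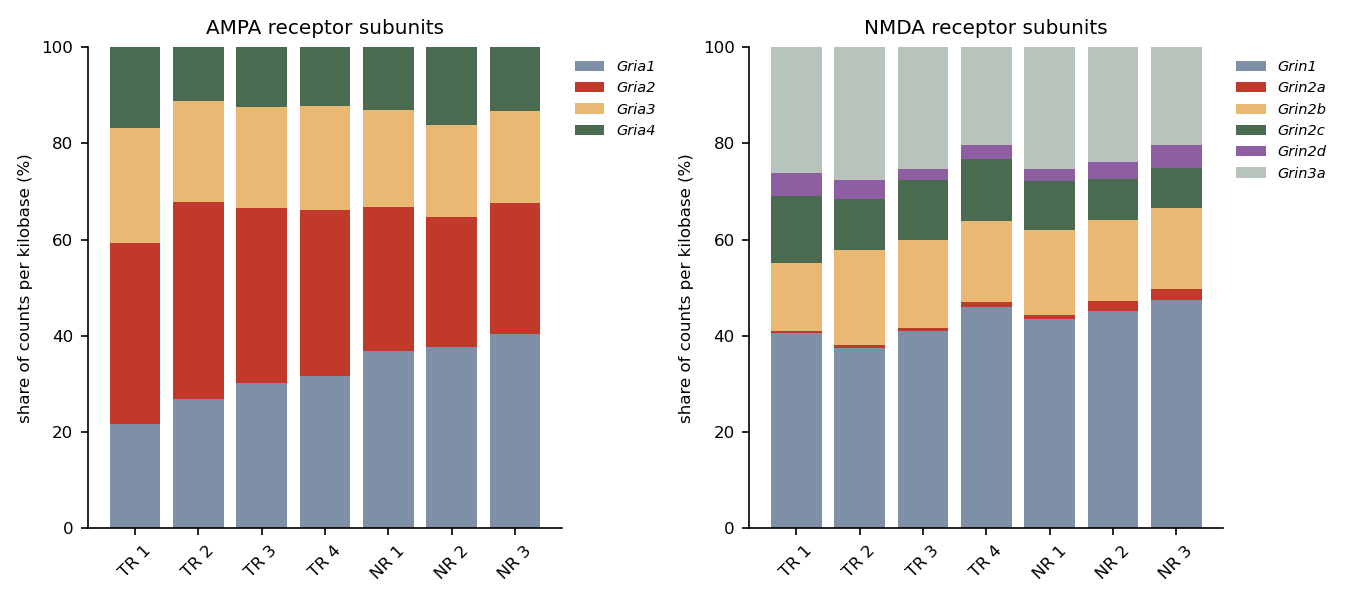
Stacked bars give the share of each subunit in the counts per kilobase of its class (percent, vertical axis) in the 4 TR and 3 NR samples, with AMPA subunits in the left panel and NMDA subunits in the right panel. Gria1 takes 21.8% to 31.7% of the AMPA bars in TR and 36.8% to 40.4% in NR.

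The NMDA class as a whole was smaller relative to the AMPA class in TR samples. The ratio of summed counts per kilobase, NMDA over AMPA, was 0.172, 0.155, 0.203 and 0.198 in TR samples 1 to 4 and 0.230, 0.216 and 0.236 in NR samples 1 to 3, which did not overlap. The means were 0.182 ± 0.0228 (SD, n = 4) and 0.227 ± 0.00994 (SD, n = 3), and no test was made of this ratio because the subunits were chosen with results of these data known. Like the shares, the ratio was not adjusted for GC content or for genes detected. Without TMM correction, the 6 NMDA subunits summed to 348 to 479 CPM in TR and to 529 to 619.9 CPM in NR samples.

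Markers of some other cell types moved with the groups. Their sums are given in CPM without TMM correction. The 6 endothelial markers summed to 92.4 to 241 CPM in TR and 19.1 to 65.9 CPM in NR samples, and 4 of them were called higher in TR. The 6 markers of oligodendrocyte precursors, cells that express AMPA and NMDA receptors, summed to 363 to 429 CPM in TR and 443 to 451 CPM in NR samples, with 2 called lower in TR. Astrocyte markers summed to 1475 to 1611 CPM in TR and 1337 to 1519 CPM in NR samples, with 2 of 6 called higher and 1 lower, and microglia markers to 488 to 568 and 539 to 556 CPM. Markers of cortical and hippocampal excitatory neurons, which are rich in Grin2a, summed to 322 to 499.6 CPM in TR and 475 to 492 CPM in NR samples, with 0 of 5 called by edgeR. Striatal projection neuron markers summed to 98.5 to 149 CPM in TR and 139 to 160 CPM in NR samples, with 2 of 3 tested called lower in TR. Cerebellar granule cell markers summed to 39.3 to 80.4 CPM in TR and 33.0 to 51.4 CPM in NR samples, with 1 of 3 tested called higher. No list named here was at 0 in any sample, and the part of such cells in the subunit differences was not tested.

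Beyond the subunits, 66 genes in 6 lists that act with these receptors were examined, of which 61 were tested. Of these, 16 (26.2%) passed the threshold, 2 of them higher (3.28%) and 14 lower (23.0%) in TR, beside 15.1% and 14.9% of all genes tested. Their median log2 fold change was -0.19, against 0.007 over all genes. With the GC content offset, an alternative applied to these lists after the data were seen, 12 of the 14 lower calls remained and neither of the higher ones did. Postsynaptic scaffolds, the proteins that anchor the receptors, had the most calls, with 1 of 15 higher and 5 lower in TR and a median of -0.19.

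The scaffold genes that fell in TR included Dlgap2, Dlgap3 and Dlgap4, which link PSD-95 to Shank proteins. Dlgap3 was at 37.4 to 61.8 CPM in TR and 87.2 to 106 CPM in NR samples (log2 fold change -0.86, SE 0.143, edgeR adjusted p = 0.000234), and Dlgap4 at 145 to 177 CPM and 234 to 237 CPM (-0.54, SE 0.0962, edgeR adjusted p = 0.000396). In each the groups were clearly apart. Dlgap2 had a log2 fold change of -1.01 (edgeR adjusted p = 0.00374) and Shank1, a scaffold that joins these complexes to the cytoskeleton, of -0.59 (edgeR adjusted p = 0.00811). Homer1, which binds Shank proteins and metabotropic glutamate receptors, went the other way, at 220.3 to 262 CPM in TR and 179 to 207 CPM in NR samples (log2 fold change 0.29, edgeR adjusted p = 0.0226). Its GC content of 36.9% is close to that of Gria2, and with the GC content offset its log2 fold change was -0.06 (edgeR adjusted p = 0.669). Dlgap3 (63.9% GC) and Shank1 (61.5%) kept their calls with that offset at -0.61 and -0.40, the latter near the threshold (edgeR adjusted p = 0.00151 and 0.0484).

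Of 12 tested regulators and effectors of NMDA receptors, 4 were lower and 1 higher in TR, with a list median of -0.14. Ptk2b, a calcium-activated kinase that acts with Src on these receptors, fell from 194 ± 12.5 CPM in NR (SD, n = 3) to 134 ± 22.4 CPM in TR (SD, n = 4; log2 fold change -0.53, edgeR adjusted p = 0.00124). Neto1, an auxiliary protein of kainate receptors that also associates with NMDA receptors, had a log2 fold change of -0.42, Camk2b of -0.34 and the kinase gene Fyn of -0.31 (edgeR adjusted p = 0.0213, 0.0102 and 0.0213). Camk2d, another subunit of the calcium/calmodulin-dependent kinase CaMKII, was higher in TR, at 333 ± 14.3 against 279.9 ± 15.4 CPM (log2 fold change 0.25, edgeR adjusted p = 0.0436), but was at 0.07 with the GC content offset (edgeR adjusted p = 0.60).

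Few genes of AMPA receptor assembly and traffic passed. Among 14 tested auxiliary and assembly proteins only the TARP gene Cacng3 was called, at 64.5 ± 4.22 CPM in TR (SD, n = 4) and 92.9 ± 1.49 CPM in NR (SD, n = 3; log2 fold change -0.53, edgeR adjusted p = 0.00147), although 13 of the 14 had a negative fold change and the list median was -0.29. Of 9 tested trafficking and clustering genes, Pick1, which binds GluA2 and promotes its internalization, had a log2 fold change of -0.68 (edgeR adjusted p = 0.00317) and Nptx2, a secreted pentraxin that clusters AMPA receptors, of -0.53 (edgeR adjusted p = 0.0389, and 0.102 with the GC content offset), and none was higher. Of the 8 other ionotropic subunits (kainate, delta and GluN3B), only the kainate subunit Grik5 was called (log2 fold change -0.44, edgeR adjusted p = 0.00423), and its adjusted p was 0.0835 with that offset.

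The 3 editing genes are of interest because of the Q/R codon shown above. Adarb1, which encodes ADAR2, the enzyme that edits it, was at 127 ± 11.5 CPM in TR (SD, n = 4) and 145 ± 9.40 CPM in NR (SD, n = 3), and its log2 fold change of -0.19 did not pass (edgeR adjusted p = 0.155). Adar, which encodes the related enzyme ADAR1, was lower in TR at 109 ± 9.81 against 165 ± 12.1 CPM (log2 fold change -0.59, SE 0.101, edgeR adjusted p = 0.000287). Exons of the antisense gene Chrnb2 overlap 16.8% of the exonic sequence of Adar, and Chrnb2 is counted in the same files, so reads of those bases are uncertain. Adarb2, which encodes a family member without known editing activity, had a log2 fold change of -0.07 (edgeR adjusted p = 0.811).

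**Figure D5:**
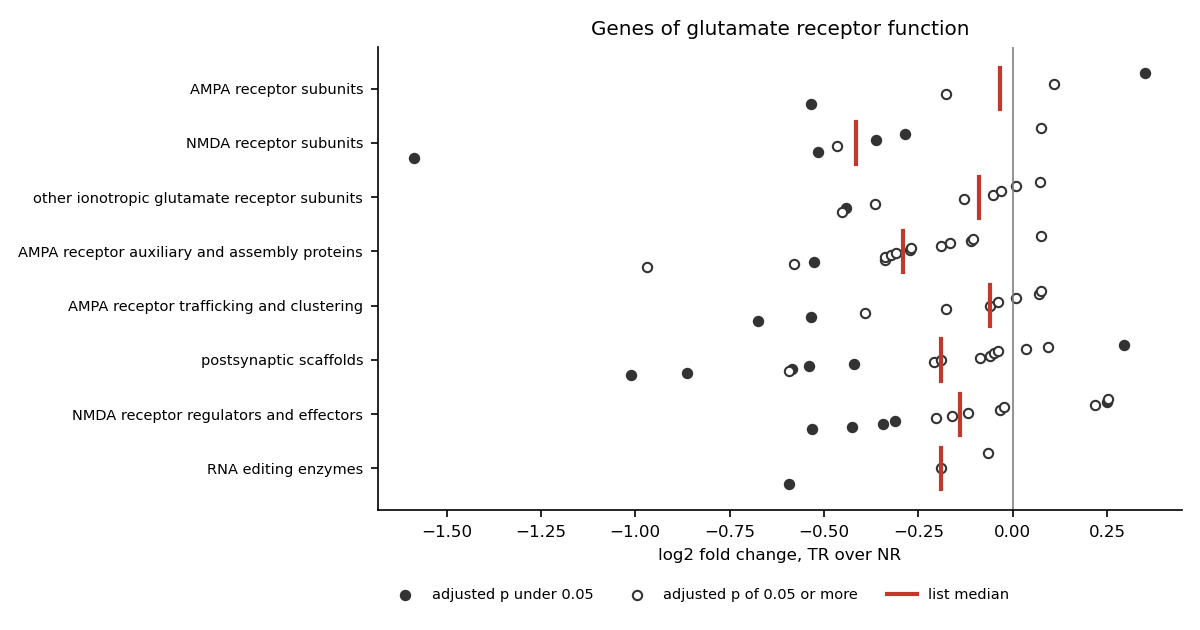
Each point is the log2 fold change (TR over NR, horizontal axis) of 1 tested gene, in the 2 receptor classes and the 6 lists of genes that act with them. Filled points had an edgeR adjusted p under 0.05 and red lines are list medians, which lie at or below -0.03 in all 8 groups.

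The genes whose pattern over the 7 samples came closest to that of Gria2 and Grin1 were sought among the 70 other tested genes of the subunits and lists, by the root mean square difference of log2 CPM centred on each gene's mean. For Gria2 these were Camk2d (0.108), Homer1 (0.108) and Gria3 (0.151), against a median of 0.36 over the genes compared. For Grin1 they were Adar (0.10), Dlgap4 (0.120) and Camk2b (0.123), against a median of 0.282. Each mean spanned both groups, so these differences include the change between TR and NR described above. With the GC content offset, the log2 fold changes of Gria2, Camk2d, Homer1 and Gria3 were -0.02, 0.07, -0.06 and -0.18.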

How the data were processed

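Total RNA from 4 TR and 3 NR samples of 2 pooled neurons was amplified and sequenced. Samples were grouped, and numbered, by their labels. According to the submitters' processing notes and the study's methods, reads were checked with FastQC 0.72, aligned to mm10 with STAR 2.6.0, freed of PCR duplicates with RmDup and counted with HTSeq 0.9.1. The authors deposited 1 table of raw read counts by gene symbol per sample, with no normalization. Duplicate removal without molecular identifiers can compress high counts. The annotation, strand setting and rule for overlapping genes used in counting are not given in the sources used here.

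From the deposited counts, a gene was kept if it had 10 or more counts in 3 or more samples, and the whole table was fitted with edgeR 4.0.16 (quasi-likelihood, robust, TMM, two-sided, Benjamini-Hochberg) in R 4.3.3, with a threshold of 0.05, and each standard error is the absolute log2 fold change over the square root of F. The study used DESeq2, which was run here as an alternative (DESeq2 1.42.0), as was limma 3.58.1. GC content and length offsets were made with mgcv 1.9.3. Shares were compared by exact permutation with numpy 2.4.6, and Spearman's rho was computed with scipy 1.17.1. Lengths, GC content, coordinates and sequences came from GENCODE M21, in which 94.5% of the symbols were found. The pore-loop sequences of 2 subunits are not reported here. Within a group, counts of any 2 samples differed beyond sampling noise (chi-square 2.03 to 5.11 per degree of freedom).

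All subunits were named, with, from each other list, at most 4 genes past the threshold per direction by fold change, all members of a list of 3, and the 3 genes most like Gria2 and Grin1. The subunits, lists and tests were chosen with earlier results of these data known. Alternatives comprised other tests, normalizations, filters, downsampling, a covariate, offsets, length definitions, a block for replicate number, and leaving out single samples.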

Additional observations from a re-analysis of the deposited data

How the results depend on the processing

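Against 6 subunits past the threshold, 0 passed when genes detected per sample was a covariate (edgeR, 1 at an unadjusted p under 0.05), 3 to 6 passed when 1 sample was left out (3 without TR 2 and 3 without NR 3, in both cases Gria1, Grin1 and Grin2a), and 4 to 6 passed otherwise. The replicate numbers do not pair the samples (mean correlation of deviations -0.053 for the same number and 0.017 for different numbers). With the replicate block 5 passed, Grin3a being lost (log2 fold change -0.22, adjusted p = 0.164), and 4 passed with block and GC content offset. Over all genes, 37.8% of the calls were higher in TR with the GC content offset, 41.5% with the length offset and 62.1% with upper quartile normalization, against 50.3%, with shifts of the median log2 fold change within 0.1. Directions turned for Gria2 (-0.017 with the GC content offset), Gria3 (-0.18 with that offset, -0.17 with block and offset), Gria4 (0.13) and Grin2d (0.50) with the covariate, and Grin2c (-0.014 with all genes of at least 1 count, -0.0173 to 0.18 with 1 sample left out). Gria2 was also not called with the length offset (0.28, adjusted p = 0.0641) or with block and GC content offset (0.02, adjusted p = 0.918). Nor was Grin2b with upper quartile normalization (-0.29, adjusted p = 0.0687). Grin3a was lost in 9 of 13 alternatives that left out no sample, although TR 4 did not inform the fold change in those with a block. Grin2a was not tested with at least 10 counts required in every sample. Of the genes of the 6 other lists 16 passed, against 26 with all genes of at least 1 count, 0 with the covariate (edgeR, 11 at an unadjusted p under 0.05) and 9 to 16 with 1 sample left out (9 without TR 2, 10 without NR 2 and 9 without NR 3), settings applied to these lists after the data were seen.

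Beside 35.4% of all genes tested that did not overlap in CPM, 4 of 14 shares did not overlap. This number was 2 with counts not divided by length, 4 to 7 with 1 sample left out (7 without TR 4 and 7 without NR 1), and 9 shares had 1 sign in all 3 same-numbered pairs (replicate block). The NMDA to AMPA ratio differed by -0.0455, by -0.0844 with counts not divided by length, by -0.0723 per kilobase of the longest transcript, by -0.0508 in the replicate block and by -0.0527 to -0.0365 with 1 sample left out. Shares that turned were those of Grin2b (-0.132 downsampled, -0.621 to 1.27 with 1 sample left out) and Grin2d (-0.0995 and -0.56 to 0.67) among NMDA subunits, and of Grin2b (0.0783) and Grin2d (0.127, and -2.52 to 1.17 with 1 sample left out) among GluN2 subunits with counts not divided by length. With 1 sample left out, or in 3 pairs, no share can pass 0.05. The causes were not tested. Depth limits Grin2a and Grin2d, at 5 to 94 and 15 to 77 counts.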
